A study of Mus musculus with 2 samples.

Results

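The NRF2 antioxidant core was followed as 10 genes, chosen by the gene name printed for each probe in the scanner files: the transcription factor gene Nfe2l2 and the target genes Slc7a11, Gclc, Gclm, Txn1, Txnrd1, Prdx1, Srxn1, Hmox1 and Nqo1. They had 12 of the 39429 probes on the array and were all among the 16996 genes measured on both arrays, out of 30165 gene names. The cells were bone marrow mononuclear cells flushed from femurs of C57BL/6 mice (strain label C57/Bl6J) aged 2 to 4 months. One culture had received ninjin'yoeito (NYT), a multi-herb drug of Kampo medicine, and the other was the untreated negative control. Both had 2% serum and were collected at day 11, and each gave 1 one-colour array. The dose, any pooling of marrow and whether 1 animal gave both cultures are unknown here. With 1 array per group there were no replicates, so no test was made and every difference is between these 2 cultures.

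NRF2, the protein of Nfe2l2, is a transcription factor that the KEAP1 and CUL3 ubiquitin ligase keeps low by degradation. When oxidants or electrophiles modify KEAP1, NRF2 escapes, pairs with small MAF proteins and binds antioxidant response elements in its target genes, where BACH1 acts as a competing repressor. The targets supply glutathione, reduce thioredoxin and peroxides, break down heme and detoxify quinones, and in marrow cells they are best known from macrophages, which handle heme from aged red cells and the oxidants they make themselves.

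Promoter sequences are shown to describe the genes, and the rule for the members did not use them. The members apart from Nfe2l2 were listed as known NRF2 targets, and NRF2 acts through antioxidant response elements. A share of matches above that of all genes is therefore no independent support for the list. RefSeq windows on GRCm38.p6, from 250 bases before to 50 bases after the annotated start, were matched for 8 member genes in 10 windows, 3 of them for Txnrd1. Hmox1 and Gclc had no window in the promoter table, so they were not searched. The core of the antioxidant response element was searched on both strands as TGACNNNGC and TGAGNNNGC, and the amino acid response element, known to be bound by ATF4 with C/EBP factors, as TGATGCAA. Capitals mark the matches, read on the strand of the gene, so a match on the opposite strand appears as its reverse complement. The windows with a match were as follows.
Srxn1 promoter, chr2:152105274-152105573, plus strand: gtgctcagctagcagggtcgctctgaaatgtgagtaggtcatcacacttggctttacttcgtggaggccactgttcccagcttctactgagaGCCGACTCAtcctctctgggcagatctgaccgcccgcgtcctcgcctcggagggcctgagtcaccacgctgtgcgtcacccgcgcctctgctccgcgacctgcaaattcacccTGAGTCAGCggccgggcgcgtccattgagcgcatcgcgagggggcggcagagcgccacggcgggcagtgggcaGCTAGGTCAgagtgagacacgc
Prdx1 promoter, chr4:116685349-116685648, plus strand: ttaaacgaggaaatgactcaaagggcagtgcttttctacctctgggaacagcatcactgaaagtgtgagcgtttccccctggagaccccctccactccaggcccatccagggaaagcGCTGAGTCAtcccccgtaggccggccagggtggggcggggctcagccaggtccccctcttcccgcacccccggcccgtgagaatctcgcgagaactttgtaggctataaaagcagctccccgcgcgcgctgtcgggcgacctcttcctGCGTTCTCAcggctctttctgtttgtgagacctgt
Gclm promoter, chr3:122245307-122245606, plus strand: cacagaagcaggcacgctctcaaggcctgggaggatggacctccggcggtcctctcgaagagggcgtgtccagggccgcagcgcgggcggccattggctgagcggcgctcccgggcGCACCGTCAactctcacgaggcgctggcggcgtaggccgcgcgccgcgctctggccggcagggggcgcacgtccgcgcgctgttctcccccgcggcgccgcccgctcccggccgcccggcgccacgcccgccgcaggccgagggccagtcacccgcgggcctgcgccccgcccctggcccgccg
Txnrd1 promoter, chr10:82858956-82859255, plus strand: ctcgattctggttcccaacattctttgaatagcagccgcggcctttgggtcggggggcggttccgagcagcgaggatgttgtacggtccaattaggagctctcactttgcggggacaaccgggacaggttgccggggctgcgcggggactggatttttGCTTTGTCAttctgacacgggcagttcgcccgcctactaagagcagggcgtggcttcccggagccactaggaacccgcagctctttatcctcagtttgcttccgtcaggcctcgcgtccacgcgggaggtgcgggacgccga
Nfe2l2 promoter, chr2:75704614-75704913, minus strand: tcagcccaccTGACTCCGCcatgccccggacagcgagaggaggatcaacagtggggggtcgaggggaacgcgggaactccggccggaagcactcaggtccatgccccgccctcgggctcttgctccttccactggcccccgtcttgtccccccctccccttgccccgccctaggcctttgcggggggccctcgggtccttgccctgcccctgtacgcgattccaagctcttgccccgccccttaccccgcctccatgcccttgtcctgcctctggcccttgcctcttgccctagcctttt
Slc7a11 promoter, chr3:50443564-50443863, minus strand: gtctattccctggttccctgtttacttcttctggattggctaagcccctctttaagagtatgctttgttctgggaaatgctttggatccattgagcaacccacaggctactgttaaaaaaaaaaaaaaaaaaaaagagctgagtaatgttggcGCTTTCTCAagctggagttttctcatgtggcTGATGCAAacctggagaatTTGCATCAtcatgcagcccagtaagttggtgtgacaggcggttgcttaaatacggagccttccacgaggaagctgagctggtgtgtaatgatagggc

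Either core was found for 6 of the 8 member genes, against 30.8% of the 27025 genes in the promoter table. TGACNNNGC was found for Srxn1, Prdx1, Gclm, Txnrd1 and Nfe2l2, which is 5 of 8 against 14.0%. TGAGNNNGC was found for Srxn1, Prdx1 and Slc7a11, which is 3 of 8 against 19.8%. The TGACNNNGC match of Gclm lay 134 to 126 bases before the start, that of Prdx1 133 to 125 bases before it and that of Txnrd1 92 to 84 bases before 1 of its 3 starts. Some matches lay after the start. These were the TGACNNNGC of Srxn1, at 29 to 37 bases, and the TGAGNNNGC of Prdx1, at 16 to 24 bases. Of the 3 matches of Srxn1, the one from 45 to 37 bases before the start also overlapped TGANTCA, the AP-1 motif, as did the match of Prdx1 before its start. Slc7a11 stood apart from the other members: its window held TGATGCAA at 66 to 59 bases and, on the opposite strand, at 47 to 40 bases before the start. That motif was found in 1.03% of genes in the table and in no other member window. The Nqo1 and Txn1 windows held none of these letters. Sequence outside the windows was not searched, so an empty window does not mean that a gene lacks the element. A match describes the sequence and is no evidence of binding in these cells.

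**Figure D1:**
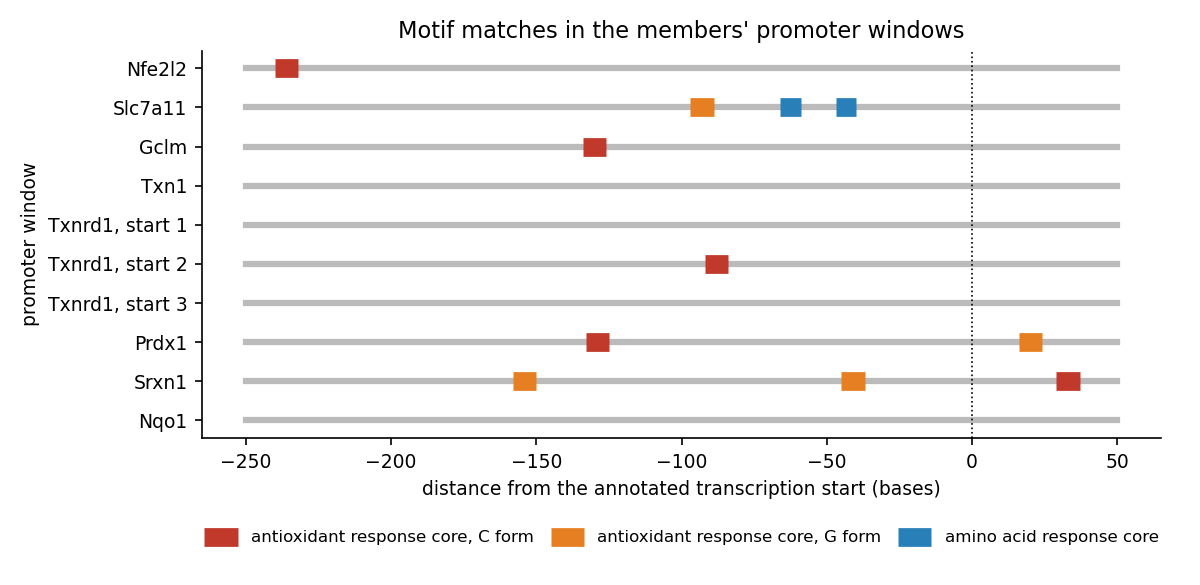
Position of the motif matches in the 10 promoter windows of 8 member genes, with distance from the annotated transcription start in bases on the x axis and a grey bar for each window. Red and orange blocks are the TGACNNNGC and TGAGNNNGC forms of the antioxidant response core, blue blocks are TGATGCAA, which appears in the Slc7a11 window.

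Intensity is the brightness of a probe's spot as processed by the scanner software. The NYT array was dimmer as a whole, with a 75th percentile of 728 against 1475 on the control array, so values as deposited are given first and then differences after scaling each array to that percentile, which raises every difference by 1.02 on the log2 scale. Which of these scales is right for the members cannot be settled from 2 arrays. The scanner software's own error estimate gave each member difference an error of about 0.20 (log2), which covers a spot and not a culture. Probe brightness also depends on the probe's own sequence, so levels are compared between the arrays and not between genes. Probes well above background numbered 57.7% on the NYT array and 62.2% on the control array.

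After scaling, 6 of the 10 genes were at least 2-fold higher on the NYT array and none was 2-fold lower. Over all 16996 measured genes the shares were 11.2% higher and 11.0% lower. The members' median difference was 1.20 on the log2 scale, against 0.29 for all measured genes. As deposited, 6 of 10 were above their control value, none by 2-fold, and 1, Slc7a11, was at least 2-fold lower, against 1.24% and 36.4% of all genes, and the medians were 0.18 and -0.73. Among those 6, Gclc (0.154) and Hmox1 (0.202) were above by less than their scanner error (0.204). With quantile normalization 3 were at least 2-fold higher (Srxn1, Gclm and Gclc), against 11.0% of all genes, and after loess 2 (Srxn1 and Gclm), against 5.55%.

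The place of a gene's difference among all genes does not move when an array is scaled by a constant. By that measure 6 of the 10 members stood in the highest 10% of all measured genes and 8 in the highest 25%. Their median percentile was 93.1. After loess 4 stood in the highest 10% and 6 in the highest 25% (median percentile 89.6), and with quantile normalization 2 and 6 (82.3). With normexp background correction 6 stood in the highest 10% and 6 in the highest 25%. With no filter on dim probes these counts were 4 and 6 (median percentile 88.8), and with the other detection flag 4 and 6 (89.3). With the authors' value table they were 2 and 6 (82.0). With 1 value per gene, Srxn1 had the highest and Slc7a11 the lowest difference of the 10 under all 11 settings that gave a difference for each gene, several of which shift all values alike. The gap between Srxn1 and Slc7a11 was 1.77 on the log2 scale, with a scanner error of 0.29, and ranged from 1.25 to 1.77 over these settings. Slc7a11 and Nqo1, which had the lowest scaled differences, were also the dimmest members. Their intensities were 325 and 382 on the NYT array and 657 and 674 on the control array. Whether probe brightness has a part in the gaps between members was not tested.

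**Figure D2:**
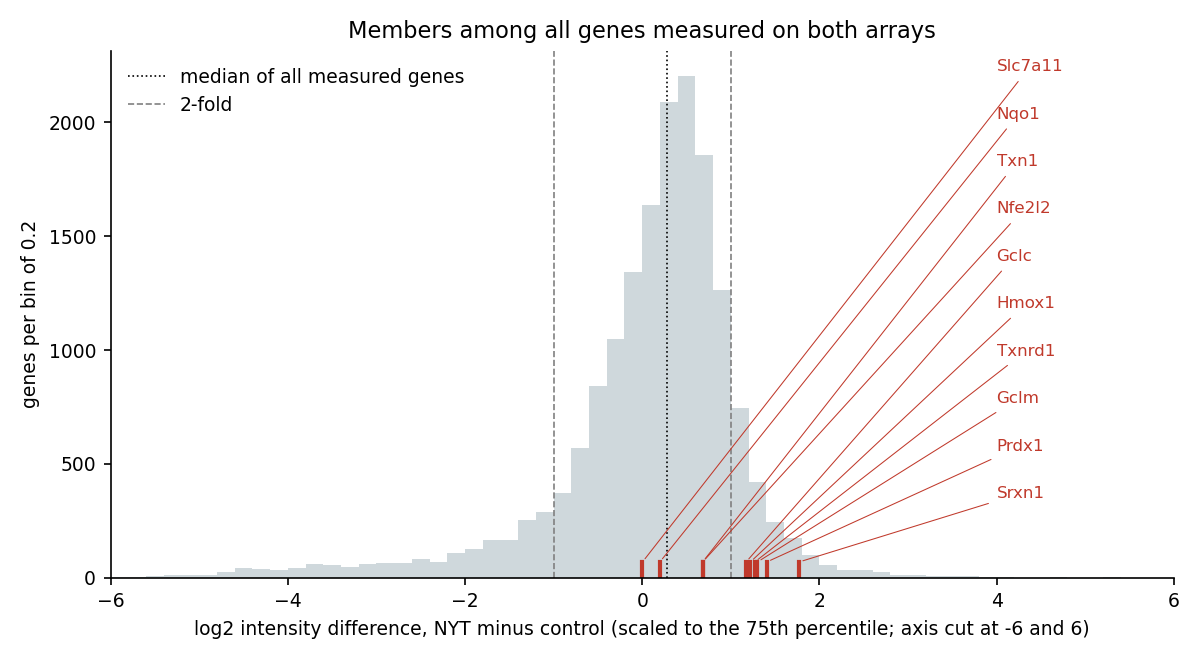
Histogram of the log2 intensity difference, NYT minus control, for the 16996 genes measured on both arrays, with red ticks at the 10 members. The dashed lines mark 2-fold and the dotted line the median of all genes at 0.29; the members run from 0.00 for Slc7a11 to 1.77 for Srxn1, 6 of them to the right of the upper 2-fold line.

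Nfe2l2, which encodes NRF2 itself, had an intensity of 19633 on the NYT array and 24786 on the control array. Its probe lies at chr2:75513771-75513830, minus strand (mm9). The control array was thus brighter as deposited, and after scaling the NYT array was 1.60-fold higher, a log2 difference of 0.68 at the 75.3rd percentile of all genes. NRF2 protein, which is known to be set mainly by degradation, was not measured. Srxn1 exceeded Nfe2l2 in its difference by 1.09, and over the settings by 0.997 to 1.18.

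Slc7a11 encodes the xCT chain of the transporter that brings in cystine, the precursor that limits glutathione supply. Its intensity was 325 on the NYT array and 657 on the control array, at chr3:50169700-50169759, minus strand (mm9). After scaling the arrays did not differ beyond the scanner error (log2 difference 0.0027, error 0.20), at the 35.7th percentile. Its partner chain Slc3a2, which also serves other amino acid transporters, behaved otherwise, with 57595 on the NYT array and 33074 on the control array and a scaled difference of 1.82. The gap between these partner chains was 1.82, and over the settings it ranged from 1.28 to 1.82.

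Gclc and Gclm encode the catalytic and modifier subunits of glutamate-cysteine ligase, the first and rate-limiting enzyme of glutathione synthesis. Gclc had an intensity of 4507 on the NYT array and 4051 on the control array, a 2.25-fold difference after scaling (log2 1.17), at chr9:77641296-77641355, plus strand (mm9). Gclm had 3480.45 on the NYT array and 2863 on the control array, 2.46-fold after scaling (log2 1.30). Both subunits were brighter on the NYT array before any scaling, Gclc by less than its scanner error (log2 0.15, error 0.20). Their differences lay within 0.13 of each other, less than the scanner error of 0.29. The Gclm probe is shown because its 60 bases span 2636 bases of genome, chr3:121962174-121964809, plus strand (mm9), so it crosses at least 1 intron and reads spliced mRNA.
Gclm probe: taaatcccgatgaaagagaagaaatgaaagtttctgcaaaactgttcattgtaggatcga

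The genes of the thioredoxin branch differed among themselves. Txn1, the small protein that reduces disulfides, had 40089 on the NYT array and 50629 on the control array, at chr4:57956677-57956736, minus strand (mm9), and its scaled difference of 0.68 was 1.60-fold. Txnrd1, the cytosolic reductase that recharges thioredoxin with NADPH, had 19735 on the NYT array and 16575 on the control array, at chr10:82360230-82360289, plus strand (mm9), and 2.41-fold after scaling (log2 1.27). The reductase thus exceeded its substrate by 0.59 in its difference, with a scanner error of 0.29, and by 0.58 to 0.74 over the settings.

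Prdx1, a peroxiredoxin that reduces hydrogen peroxide with thioredoxin, was read by 2 probes. The probe at chr4:116371818-116371877, plus strand (mm9), had 176546 on the NYT array and 135025 on the control array, 2.65-fold after scaling (log2 1.41). The probe at chr4:116372422-116372481 had 16027 on the NYT array and 9121 on the control array, 3.56-fold after scaling (log2 1.83). Both were higher on the NYT array with and without scaling, and their differences were 0.43 apart, with a scanner error of 0.29. With quantile normalization, the brighter probe's difference was 0.76, under 2-fold.

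Srxn1 encodes sulfiredoxin, which restores peroxiredoxins whose cysteine has been over-oxidised, and by the brightest probe of each gene it had the highest difference of the 10. The dimmer Prdx1 probe, at 1.83, lay above it. Its intensity was 46342 on the NYT array and 27539 on the control array, at chr2:151937009-151937068, plus strand (mm9). That is 1.68-fold as deposited and 3.41-fold after scaling (log2 1.77), at the 98.0th percentile of all genes. With the brightest probe standing for each gene it was the single member at least 3-fold higher, against 2.98% of all genes at that threshold, and none was 3-fold lower, against 6.87%. It stayed at least 2-fold higher with quantile normalization (1.35) and after loess (1.26), and stood at 0.75 without scaling.

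Hmox1 encodes heme oxygenase-1, which breaks heme down to biliverdin, iron and carbon monoxide, and it too was read by 2 probes. The probe at chr8:77624207-77624266, plus strand (mm9), had 35269.9 on the NYT array and 30651.5 on the control array, 2.33-fold after scaling (log2 1.22). The probe at chr8:77620797-77620856 had 4138 on the NYT array and 4129 on the control array, 2.03-fold after scaling (log2 1.02). The probes differed by 0.20, less than the scanner error of 0.29. The sequence of the second probe is given because, as deposited, it was nearly equal on both arrays, so its scaled difference is the shift of 1.02 that the scaling adds.
Hmox1 probe, chr8:77620797-77620856, plus strand: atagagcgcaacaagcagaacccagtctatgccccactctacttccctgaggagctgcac

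Nqo1 encodes the quinone reductase that is widely used as a readout of NRF2. Its intensity was 382 on the NYT array and 674 on the control array, at chr8:109912440-109912499, minus strand (mm9). The scaled difference of 0.20 was no larger than the scanner error of 0.20 and stood at the 45.1st percentile. Hmox1 exceeded Nqo1 in its difference by 1.02, and over the settings by 0.55 to 1.02.

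**Figure D3:**
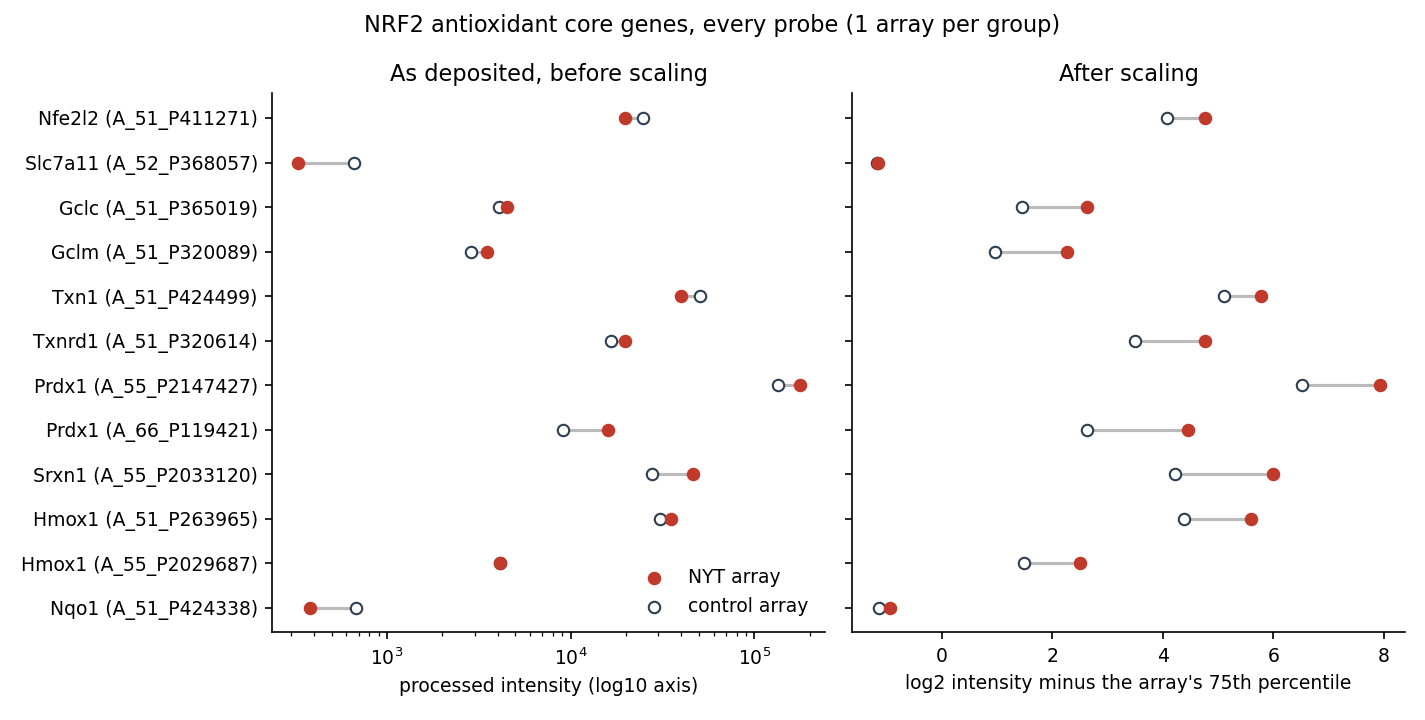
Intensity of every probe of the 10 genes on the NYT array (filled red) and the control array (open), as deposited on a log10 axis at left and as log2 intensity minus each array's 75th percentile at right, with 1 array per group and no error bars. As deposited Slc7a11, Nqo1, Txn1 and Nfe2l2 lie lower on the NYT array, and after scaling each probe lies level with or to the right of its control value.

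The sign of some members' differences turned with the scale. Slc7a11, Nqo1, Txn1 and Nfe2l2 had differences of -1.02, -0.82, -0.34 and -0.34 without scaling. When the arrays were scaled to the E1A spike-in RNAs, which the laboratory adds to each sample in fixed amounts, these 4 were again below 0 and Gclc stood at -0.0066, Hmox1 at 0.04, Txnrd1 at 0.09, Gclm at 0.12, Prdx1 at 0.23 and Srxn1 at 0.59. On that scale 0.977% of all genes were at least 2-fold higher and 44.0% lower, and of the members none and 1.

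**Figure D4:**
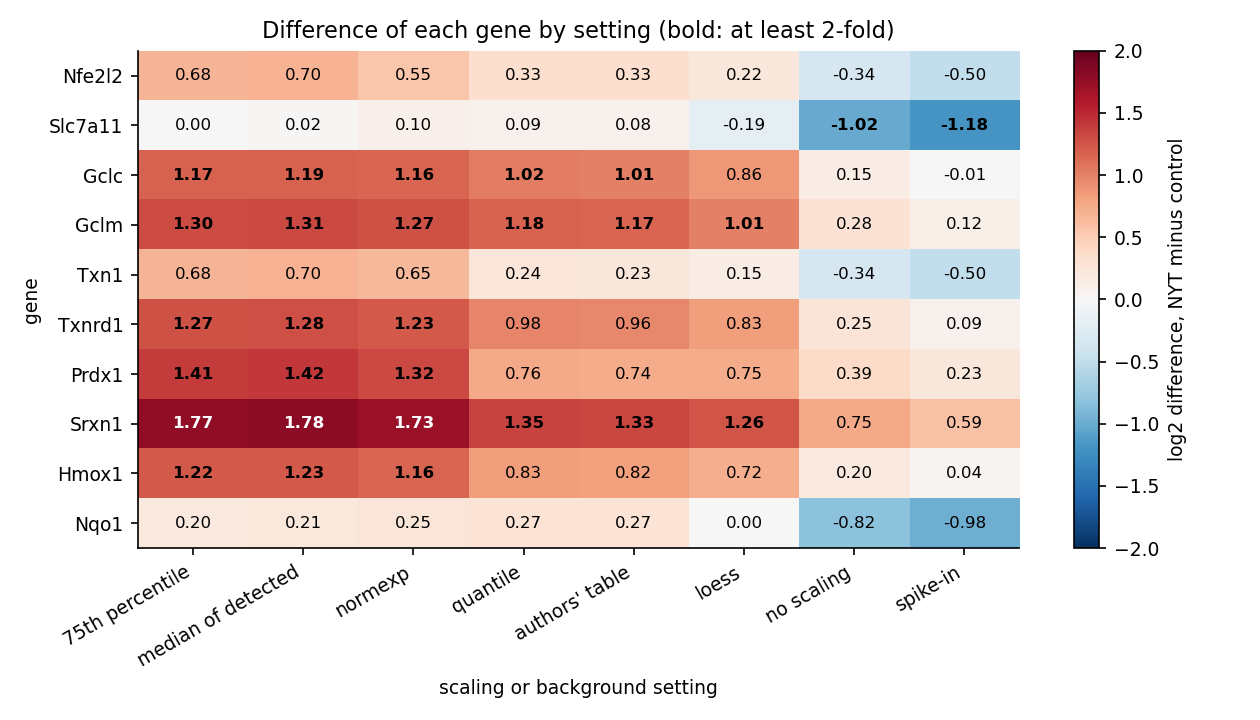
Log2 difference, NYT minus control, of the 10 genes (rows) under 8 scaling or background settings (columns), with red for higher and blue for lower on the NYT array and bold for at least 2-fold. Srxn1 runs from 1.78 to 0.59 and is the highest in every column, while Slc7a11 is the lowest in every column.

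The list called NRF2 regulators held genes that control NRF2 and relatives of NRF2 or BACH1. Its genes lay on both sides of 0. Of 15 listed regulators 14 were measured, and 3 were at least 2-fold higher and 2 lower. For this and each list that follows, the shares over all measured genes were 11.2% higher and 11.0% lower. The regulators' median was 0.14, or -0.87 without scaling, -0.08 after loess and 0.37 with the mean over probes. Here and in the lists that follow, values are scaled differences, and those between 0 and 1.02 turn below 0 without scaling. Keap1, Cul3, Bach1, Mafg, Maff and Mafk, named after their values were seen, were all under 2-fold. They stood at 0.49, 0.30, -0.22, -0.01, -0.05 and -0.17. Nfe2l1, a relative of NRF2 that controls proteasome genes, had 648 on the NYT array and 325 on the control array (scaled difference 2.01). Gsk3b, a kinase that marks NRF2 for degradation, stood at 1.29 by its brightest probe and at 0.57 by another of its 3. The third gene at least 2-fold higher, named after its value was seen, was Sqstm1, which draws KEAP1 into autophagy (1.23, or 0.46 by its other probe). Nfe2, the erythroid and megakaryocyte relative, had 878 on the NYT array and 19509 on the control array (-3.46), and Bach2, a repressor related to BACH1, had 58.5 on the NYT array and 328 on the control array (-1.47). With normexp the difference of Bach2 was -0.68, under 2-fold.

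Of 21 other known NRF2 targets all were measured, 7 were at least 2-fold higher and none lower. The median was 0.55 as scaled, -0.47 without scaling and 0.20 after loess. With quantile normalization it was 0.23, against 0.20 for all genes. Ptgr1, a reductase of lipid aldehydes and prostaglandins, had 7991 on the NYT array and 3227 on the control array (2.33). Akr1b8, an aldo-keto reductase, Esd, an esterase, and Cbr3, a carbonyl reductase, differed by 1.66, 1.66 and 1.54. Named after their values were seen, Osgin1, Gpx2, Abcc4 and Ephx1 lay below 0, at -0.998, -0.81, -0.49 and -0.21. The other 17 genes were above 0 as scaled. Osgin1 was at least 2-fold lower with quantile normalization (-1.13), with the authors' table (-1.12) and after loess (-1.29).

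Other thiol and peroxide enzymes were measured for 25 of 25 genes, with 4 at least 2-fold higher and 3 lower, near the 11.2% and 11.0% of all genes. Their median was 0.69 as scaled, -0.33 without scaling and 0.28 after loess. Txnrd3, a thioredoxin and glutathione reductase, differed by 1.97 and Gss, the second enzyme of glutathione synthesis, by 1.59. Msra, which repairs oxidised methionine, and Txnip, which binds and inhibits thioredoxin, differed by -1.28 and -1.26. Around Hmox1, 8 of 9 heme and iron genes were measured, of which 2 were at least 2-fold higher and none lower. These were the heme exporter Flvcr1 (1.87) and Por, the reductase that feeds electrons to heme oxygenase (1.16). Hmox2, the constitutive heme oxygenase, stood at 0.93 and the heme transporter Slc48a1 at 0.69, and the list's median was 0.66, or -0.36 without scaling.

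Amino acid stress genes were measured for 14 of 14, with 7 at least 2-fold higher, 2 lower and a median of 0.91, or -0.11 without scaling. The list held Atf4 itself and genes of which many, like Slc7a11, are known to answer to ATF4. Atf4, named after its value was seen, was among those higher (1.12). Cth, which makes cysteine from cystathionine, had 132 on the NYT array and 26.2 on the control array (3.35). Both values are dim, and with normexp background correction the difference was 2.00. Trib3, a pseudokinase, differed by 2.92 and Asns, asparagine synthetase, by 1.94. The 2 lower genes, named after their values were seen, were Ddit4, an inhibitor of mTORC1 signalling (-1.57), and Slc7a5, another partner of Slc3a2 (-1.46). For Slc7a5 the probe used was dim, with 53.6 on the NYT array, and its other probe stood at 0.04. The mean over its probes was -0.71, and with normexp the difference was -0.70. Of the enzymes that produce oxidants none of 9 was at least 2-fold higher and 1 was lower, near the 11.2% and 11.0% of all genes, with a median of -0.43, or -1.45 without scaling. Mpo, the neutrophil myeloperoxidase, had 2017 on the NYT array and 34193 on the control array (-3.07), the NADPH oxidase subunit Ncf1 differed by -0.98, xanthine dehydrogenase Xdh by -0.88 and the oxidase subunit Cyba by 0.90.

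**Figure D5:**
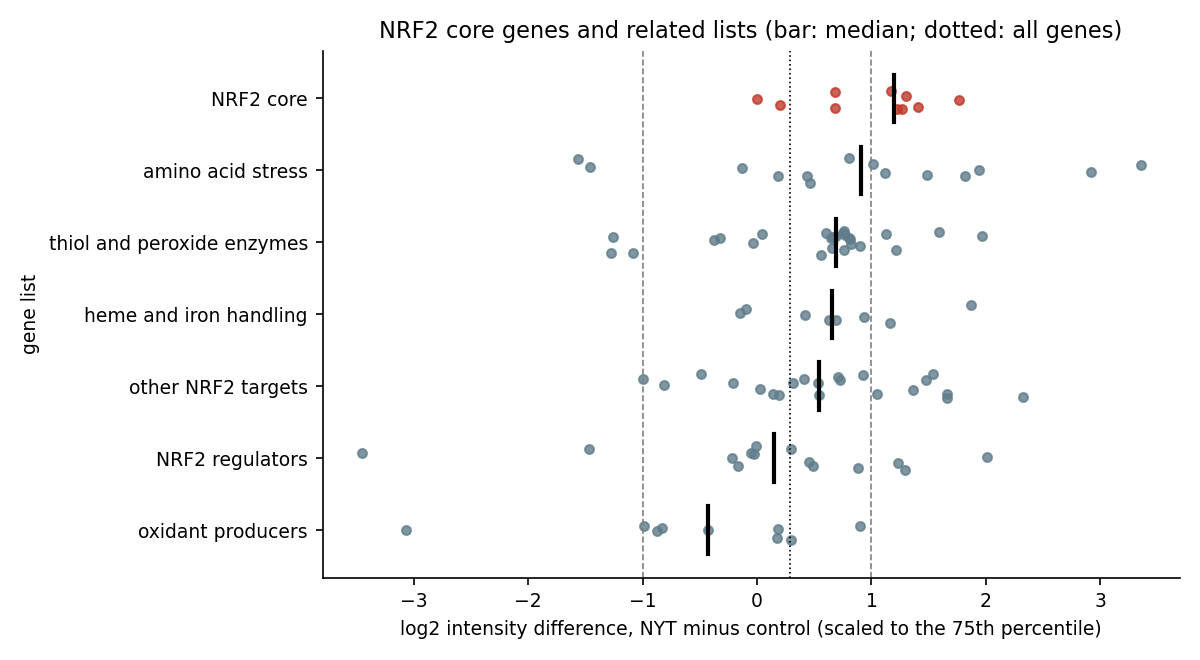
Scaled log2 difference, NYT minus control, of each measured gene (points) in the NRF2 core list and 6 related lists, with a black bar at each median, dashed lines at 2-fold and a dotted line at the median of all genes. The medians run from 1.20 for the NRF2 core to -0.43 for oxidant-producing enzymes.

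Marker genes of several cell types stood much lower on the NYT array, and their part in the members' differences was not tested. In bulk cultures fewer cells of a type and less RNA per cell cannot be told apart. Of the measured markers, 8 of 10 for neutrophils, 5 of 5 for mast cells and basophils, 6 of 6 for megakaryocytes, 4 of 5 for eosinophils, 4 of 5 for stromal cells and 3 of 5 for T and NK cells were at least 2-fold lower. Those of B and plasma cells were lower for 2 of 6 and those of erythroid cells for 2 of 4, with 1 higher. The genes with the largest differences in these lists were Cxcr2 (-4.99), Cpa3 (-7.18), Selp (-4.68), Epx (-5.11), Col1a1 (-5.33), Cd3d (-4.93), Jchain (-5.81) and Gata1 (-3.86). With normexp the values for Cpa3, Epx, Selp, Cd3d and Col1a1 were -5.76, -4.04, -3.57, -3.95 and -4.26. Of 13 measured macrophage markers 7 were lower, C1qa most (-5.21), and 1, Cd68, was higher (1.18). Among the 7, Adgre1 lay at the threshold (-1.01). Siglec1 was counted by its brightest probe (-2.69), while its other probe stood at 1.28 and the mean over probes at -0.71. Macrophage markers summed to 467 on the NYT array and 564 on the control array, in units of each array's 75th percentile, while neutrophil markers summed to 323 on the NYT array and 775 on the control array. Such sums are set mostly by the brightest probes. In the macrophage list these included Cd68, with 129012 as deposited on the NYT array and 115391 on the control array, and Lyz2, with 122833 and 195795, while C1qb and C1qc differed by -3.74 and -3.58 after scaling. The summed level was 1.24 on the NYT array and 49.4 on the control array for mast cell and basophil markers, 5.18 and 58.7 for eosinophil, and 31.0 and 269 for megakaryocyte markers. For T and NK cell markers it was 6.80 on the NYT array and 17.6 on the control array, for B and plasma cell markers 22.3 and 69.8, for erythroid markers 83.8 and 90.9, and for stromal markers 2.01 and 16.3. Most of the erythroid sum on each array was Hemgn, with a scaled difference of 0.02, while Epor differed by -3.40. Markers well above background on the control array alone were Vsig4 of macrophages, 3 of 8 for mast cells and basophils, 3 of 8 for T and NK cells and 2 of 7 for stromal cells, while 3 of 7 erythroid markers were so on neither array.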

How the data were processed

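The authors deposited 2 one-colour arrays as scanner output, with an intensity for each spot. Version 10.7.1.1 of Agilent Feature Extraction stands in the headers, and 9.5.1.1 in the submitters' processing notes. Detrending within each array and surrogate values for dim spots are recorded per the file headers, and scaling between arrays is not. Deposited flags per spot mark saturation, outliers and detection. The authors' value table held an intensity that, from its values, had been quantile normalized (39073 of 39429 sorted values equal within 1e-06). The labels and the design text name different RNA extraction kits.

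Of 43020 spots per array, 165 on the NYT array and 258 on the control array were left out as outliers, and none was saturated. Spots of 1 probe were averaged as log2 intensity, from which the 75th percentile of that array's probes was taken. Detection of a probe required the flag for signal well above background on over 50% of its spots, and the brightest probe detected on both arrays stood for its gene. Members were found by the gene name in the files. Other probes were named through RefSeq genes of GRCm38.p6 by accession (26761), symbol (3814) or synonym (639), and 8215 kept the file's name. Probe coordinates are on mm9.

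Genes were counted at 2-fold, and with 1 array per group no p-value was computed. The median SD of a difference over the spots of a probe was 0.058 (175 probes printed 10 times), and the number of arrays limits the precision. The named genes were all 10 members, up to 4 measured genes with the largest difference from each of 6 related lists, any gene of those 6 lists detected on a single array whose bound reached 2-fold (there was none in them), and the most different gene of each of 9 marker lists. The members and lists were chosen with earlier results of these data known. Alternatives were quantile, median, spike-in, loess and no scaling, normexp with offset 50, the value table, no filter, another detection flag, the mean over probes and a 3-fold threshold. The counting step was tested on simulated data. Python 3.11.15, R 4.3.3 and limma 3.58.1 were used.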

Additional observations from a re-analysis of the deposited data

How the results depend on the processing

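No paired analysis was possible because NYT and control had 1 array each, and leaving out an array leaves nothing to compare. For the changes below the cause was not tested, except that removing or changing a constant scaling moves every gene alike and that other filters or thresholds change which genes enter. The members at least 2-fold higher numbered 3 with quantile normalization and with the authors' table, 2 after loess, 0 without scaling and 0 with spike-in scaling, and 1 at 3-fold, and 1 was lower without scaling and 1 with spike-in scaling. Their median was 0.18 without scaling and 0.018 with spike-in scaling, and Gclc turned to -0.0066 with spike-in scaling. List medians without scaling and with spike-in scaling were -0.87 and -1.03 for NRF2 regulators, -0.47 and -0.63 for other NRF2 targets, -0.33 and -0.49 for thiol and peroxide enzymes, -0.36 and -0.52 for heme and iron handling, and -1.45 and -1.61 for oxidant-producing enzymes. The amino acid stress median was -0.27 with spike-in scaling. The thiol and peroxide median was 0.37 with quantile normalization, 0.37 with the authors' table and 0.28 after loess.

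The median of all genes was 0.20 with quantile normalization, 0.20 with the authors' table, -0.73 without scaling, -0.019 after loess, -0.89 with spike-in scaling, 0.34 with normexp, 0.50 with no filter and 0.32 with the other detection flag. All genes at least 2-fold higher numbered 211 without scaling, 944 after loess, 166 with spike-in scaling, 4750 with no filter, 3572 with the other flag and 507 at 3-fold. Those lower numbered 6190 without scaling, 7485 with spike-in scaling, 3414 with no filter and 1167 at 3-fold. The spike-in scale rests on 8 spike-ins well above background on both arrays, of which 7 differed by -0.12 to 0.24 before scaling and 1 by 2.25. The spike-in slope in the file headers was 0.831 for the NYT array and 0.942 for the control array.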

Other observations

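Enzyme families around the members, chosen after their values were seen, differed among their own copies. Among peroxiredoxins the scaled log2 differences, NYT minus control, were 1.41 for Prdx1, 1.21 for Prdx2, 1.13 for the mitochondrial Prdx3, 0.65 for Prdx4 of the endoplasmic reticulum, -0.32 for Prdx5 and 0.04 for Prdx6, and without scaling they were 0.39, 0.19, 0.11, -0.37, -1.34 and -0.98. Among thioredoxin reductases Txnrd3 stood at 1.97, the cytosolic Txnrd1 at 1.27 and the mitochondrial Txnrd2 at 0.65, and without scaling at 0.95, 0.25 and -0.36. The ferritin chains Ftl1 and Fth1, which store iron that heme breakdown releases, stood at 1.05 and 0.92 as scaled, 0.03 and -0.10 without scaling, and 0.24 and 0.15 with quantile normalization.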
